A study of Mus musculus with 9 samples.

Results

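Long noncoding RNAs were followed across 3 levels of MYC in a mouse line of T cell acute lymphoblastic leukemia (T-ALL). The members were the genes that release M21 of the GENCODE mouse annotation classes as lincRNA, antisense or processed_transcript, leaving out Gas5 and genes whose symbol begins with Snhg, with a mean of 2 or more CPM (counts relative to the library total) in at least 1 of the 3 groups. This rule kept 986 of 8745 genes of these classes and of 53380 rows in each deposited table. They comprised 625 antisense genes, 197 lincRNA genes and 164 processed_transcript genes. Because the limit was set on measured levels in the same 9 libraries, those levels chose the members, and a gene that met the limit only in the group where it is high was more likely to differ. The limit was met in all 3 groups by 830 members, in 2 groups by 64 and in 1 group by 92. Just inside the limit lay Gm13205, Gm26782 and E130304I02Rik, with highest group means of 2.01, 2.01 and 2.02 CPM. Just outside it lay Gm12977, Gm27230 and Gm38033, with 2.00, 1.98 and 1.98 CPM (1.9952 CPM for the first before rounding).

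All 9 libraries came from 1 tumor-derived line of FVB/N background that carries EμSRα-tTA and tet-O-MYC, so that doxycycline shuts off a human MYC transgene and every group holds the same alleles. MYC on cells were mock treated, MYC intermediate cells received 20 pg/mL and MYC off cells 500 pg/mL doxycycline, each for 48 h, with 3 libraries per group. One line stands for the disease here, doxycycline and loss of MYC move together in every group, and nothing in the labels ties replicates to separate cultures, so the p-values reflect the spread among these 9 libraries alone. The transgene (hMYC) read 1260 ± 75.4, 408 ± 23.0 and 3.78 ± 0.454 CPM in MYC on, MYC intermediate and MYC off (SD, n = 3 each, as for every group mean in the text), so MYC intermediate held 32.4% of the MYC on level.

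Long noncoding RNAs are long transcripts with no recognised protein product, and most are transcribed by RNA polymerase II, capped, spliced and polyadenylated. Their genes lie between protein-coding genes, run head to head with one from a shared promoter (divergent), or cross one on the opposite strand (antisense). Some act in the nucleus on chromatin or on nuclear bodies, some bind proteins or microRNAs in the cytoplasm, some serve mainly as the primary transcript from which a small nucleolar RNA or a microRNA is cut, and for many no role is known. MYC is a transcription factor that binds E-box sequences with its partner MAX and raises genes of growth, metabolism and ribosome production.

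Library totals ran from 18705516 to 39678799 counts, and the members took 2.08% to 2.34% of them. All 14 T cell markers were tested and were lower in MYC on than in MYC off, with a summed level of 8081 to 8484 CPM in MYC on, 13645 to 15071 CPM in MYC intermediate and 18038 to 19248 CPM in MYC off. Markers of B cells, erythroid cells and platelets, and NK cells summed to under 0.35 CPM in each library, and the 8 stromal, endothelial and epithelial markers to 6.52 to 9.55 CPM. The 6 myeloid markers summed to 26.9 to 31.3, 32.5 to 36.2 and 41.1 to 44.1 CPM in the 3 groups, with 3 of 6 at 0 counts, and the part of this in the members' results was not tested. Values are relative to the library total, and fewer cells of a type and less RNA per cell cannot be told apart in such bulk samples.

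Most members shared sequence with another gene, and this decided what their counts can show. Exons of 845 members overlapped exons of a gene on the other strand, 56 overlapped exons on their own strand, 858 had either, and 128 had none. The library kit does not mark strand. Counting was looked at in the genes whose exons lie almost wholly (99% or more of 200 or more bases) inside exons of a gene with 50 or more CPM. Of 69 such genes on the opposite strand, 55 (79.7%) had 1 CPM or more with a median of 12.8 CPM, while all 45 such genes on the same strand lay at or under 1 CPM with a median of 0. The counts thus differed by the strand of the overlap, although the kit keeps no strand. With such a kit, reads of a member and of the gene across from it cannot be told apart. The 128 members with no exon overlap carry most of the description. Of them 68 were intergenic and 33 divergent. Another 24 overlapped the body of a protein-coding gene on the other strand (antisense), and 3 that of one on the same strand. Of the known RNAs described with some overlap, Nespas has 38.5% of its exonic bases across from exons of a gene on the other strand, Malat1 6.49%, Dleu2 6.07%, Tug1 4.96%, Gm14005 3.14% and Lockd 2.76%.

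The overlapping members moved with the gene across from them. For 775 pairs with a protein-coding gene that was tested, the log2 fold changes between MYC on and MYC off correlated at r = 0.919 (Spearman's rho 0.895, across gene pairs that share reads and libraries), and 723 pairs (93.3%) differed by 0.5 or less on the log2 scale. The level of the member relative to its partner grew with the share of its exons that was overlapped. The median ratio of TPM, a unit that divides counts by gene length, was 0.498 for members overlapped over less than 25% of their exons, 0.876 at 25 to 50%, 1.17 at 50 to 90% and 2.14 at 90% and over. Of 412 called members of these pairs, 375 had a partner called in the same direction, 28 a partner that was not called and 9 a partner called the other way.

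**Figure D1:**
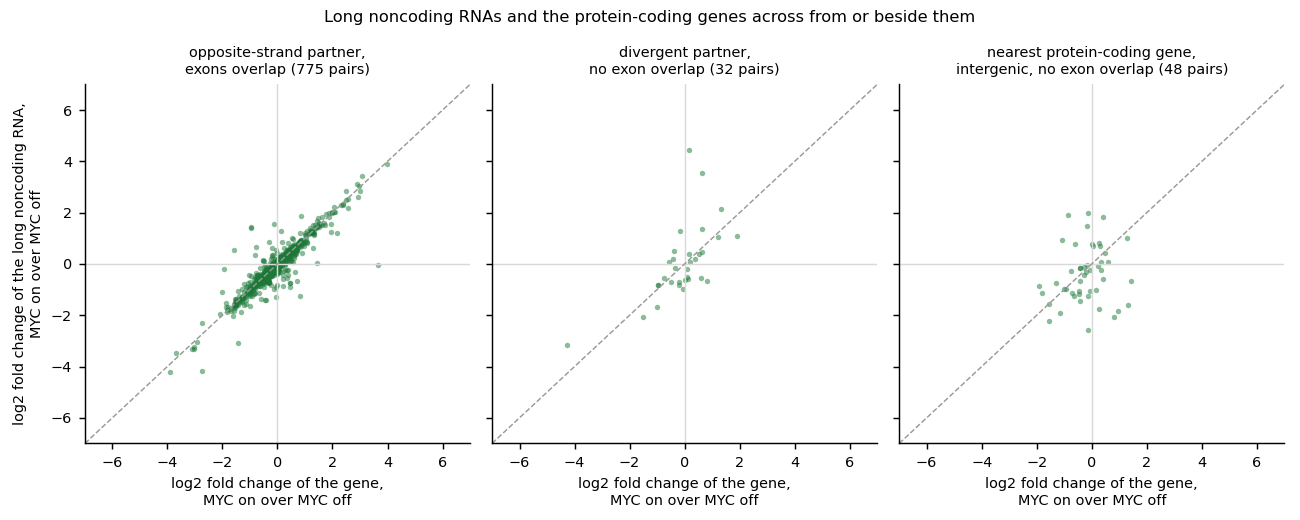
Log2 fold change, MYC on over MYC off, of each member (vertical axis) against that of a neighbouring gene (horizontal axis), 1 point per pair, for genes that overlap on the other strand, for divergent partners without exon overlap and for the nearest protein-coding gene of intergenic members. The 775 overlapping pairs hug the diagonal (r = 0.919), the 32 divergent pairs scatter around it (r = 0.632), and the 48 intergenic pairs do not line up (r = 0.165).

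Counts were compared with the quasi-likelihood test of edgeR over all 14098 genes that passed its count filter, and genes with an adjusted p below 0.01 were called. Log2 fold changes above 0 stand for a higher level in the group that is named first, and ± after a fold change gives its SE. Between MYC on and MYC off, 208 members were higher in MYC on (21.1%), 336 were lower (34.1%) and 442 were not called. Over all genes tested, 54.9% were called, 27.4% higher and 27.5% lower. The median log2 fold change was -0.155 over the members against -0.029 over all genes tested and 0.005 over the 10528 genes of other kinds at the same CPM limit. Among the 128 members with no exon overlap, 28 (21.9%) were higher and 54 (42.2%) lower, with a median of -0.377. Of the 78 of them that met the CPM limit in all 3 groups, 17 were higher and 33 lower, with a median of -0.276, and the median of the 50 that met it in 1 or 2 groups was -0.614. These are counts over genes chosen on their level, and they are given as a description.

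By class, 46 lincRNA genes were higher and 77 lower, against 123 and 208 antisense genes and 39 and 51 processed_transcript genes. Within the members free of overlap, the 33 divergent ones held 8 higher and 11 lower, and the 68 intergenic ones 18 higher and 29 lower. The 24 antisense ones, which cross the body of a protein-coding gene but none of its exons, held 1 higher and 12 lower. Members inside such a body can also collect reads of its unspliced transcript, and the part of these was not tested. The 31 members free of overlap that lie inside protein-coding gene bodies had a median of -0.567, against -0.265 for the 97 outside. The 28 higher and 54 lower members differed at least 2-fold in 15 and 33 cases, of which 6 and 15 were among the 78 that met the CPM limit in all 3 groups, beside 1517 and 1229 of the 14098 genes tested.

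Between MYC on and MYC intermediate, 124 members were higher and 183 lower, against 34.6% called among all genes, 17.2% higher and 17.4% lower. Between MYC intermediate and MYC off, 88 were higher and 119 lower, against 24.7%, 14.7% and 9.95%. In 516 of the 544 members called between MYC on and MYC off, and in 77 of the 82 without exon overlap, the MYC intermediate mean lay between the other means, as it did in 7390 of the 7734 called among all genes. Of the 28 higher members without overlap, 7 were called in both steps and 7 in neither. Another 13 were called only between MYC on and MYC intermediate, and 1 only between MYC intermediate and MYC off. The 54 lower members gave 9 in both, 17 only in the first step, 11 only in the second and 17 in neither. The same split was not made over all genes, of which 34.6% and 24.7% were called in these steps.

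**Figure D2:**
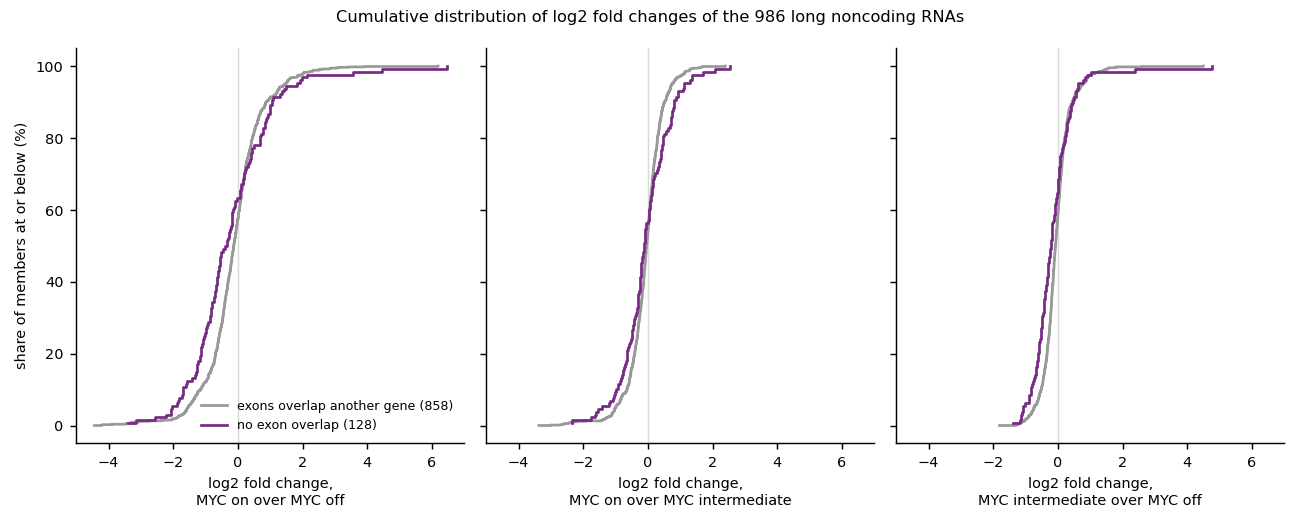
Cumulative share of members (vertical axis, percent) at or below a given log2 fold change (horizontal axis) for MYC on over MYC off, MYC on over MYC intermediate and MYC intermediate over MYC off. In the first panel the curve of the 128 members with no exon overlap crosses the middle at a median of -0.377, to the left of the curve of the 858 with overlap, whose median is -0.131.

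The members without overlap were scarce RNAs. Their mean TPM ran from 0.886 to 483 with a median of 7.58, against a median of 21.9 for members with overlap, and 68 of the 128 stayed under 5 CPM on average. Only 4 reached 100 CPM, among them Gm26917, which lies at a ribosomal RNA copy. Among the 54 lower members without overlap, replicate 1 was the lowest of the MYC off libraries in 29, and replicate 2 was the highest of the MYC on libraries in 26; over all 336 lower members these counts were 206 and 139. The most changed of them, up to 10 in each direction, are named here by a rule added after the values had been seen.

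The promoters of 4 members without overlap are shown because these members mark the ends and the midpoint of the response: 2010204K13Rik and Map2k3os were the most raised in MYC on, A430093F15Rik was among the most lowered, and Firre dipped in MYC intermediate. Each runs from 250 bases before to 50 after a transcription start, read in the direction of the gene, from RefSeq on GRCm38.p6. The capitals mark the E-box word CACGTG, searched on both strands, which reads the same on each.
2010204K13Rik, start 1, chrX:7420998-7421297, minus strand: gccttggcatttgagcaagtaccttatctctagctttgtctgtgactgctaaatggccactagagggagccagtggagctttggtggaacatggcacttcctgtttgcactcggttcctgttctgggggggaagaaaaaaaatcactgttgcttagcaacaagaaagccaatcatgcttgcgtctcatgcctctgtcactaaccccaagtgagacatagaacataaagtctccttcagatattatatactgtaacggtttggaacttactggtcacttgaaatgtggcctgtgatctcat
2010204K13Rik, start 2, chrX:7422939-7423238, minus strand: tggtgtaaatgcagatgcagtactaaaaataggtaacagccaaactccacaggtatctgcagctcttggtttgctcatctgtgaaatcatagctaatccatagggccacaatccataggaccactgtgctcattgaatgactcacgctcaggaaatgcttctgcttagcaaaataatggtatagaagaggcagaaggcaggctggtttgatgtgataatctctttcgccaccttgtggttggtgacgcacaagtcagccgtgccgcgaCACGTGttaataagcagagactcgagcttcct
Map2k3os, chr11:60931818-60932117, minus strand: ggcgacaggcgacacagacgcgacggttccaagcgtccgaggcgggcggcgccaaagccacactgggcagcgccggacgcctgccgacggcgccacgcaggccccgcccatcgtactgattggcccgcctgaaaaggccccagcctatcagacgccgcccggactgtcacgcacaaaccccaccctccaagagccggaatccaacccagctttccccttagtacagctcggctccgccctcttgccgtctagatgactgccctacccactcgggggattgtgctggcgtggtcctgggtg
A430093F15Rik, chr19:10740697-10740996, plus strand: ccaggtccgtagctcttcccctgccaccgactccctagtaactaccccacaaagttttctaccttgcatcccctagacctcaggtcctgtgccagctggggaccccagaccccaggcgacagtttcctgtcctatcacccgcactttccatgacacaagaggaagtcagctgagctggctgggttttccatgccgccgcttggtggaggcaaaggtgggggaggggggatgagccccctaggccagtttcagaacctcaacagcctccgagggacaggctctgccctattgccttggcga
Firre, chrX:50635272-50635571, minus strand: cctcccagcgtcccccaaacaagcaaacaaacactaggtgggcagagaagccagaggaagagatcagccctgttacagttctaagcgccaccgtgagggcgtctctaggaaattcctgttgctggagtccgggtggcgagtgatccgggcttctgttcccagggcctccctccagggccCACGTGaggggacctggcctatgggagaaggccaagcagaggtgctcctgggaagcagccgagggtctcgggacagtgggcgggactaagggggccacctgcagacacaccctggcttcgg
The word lay 18 bases after the second start of 2010204K13Rik and 71 bases before that of Firre, at -71, and it was not in the other 3 windows. Both RefSeq starts of 2010204K13Rik lie inside the body of the GENCODE gene that was counted, and not at that gene's outermost start. Of 32851 RefSeq promoters of this length, 2349 (7.15%) hold it, so a match here is a description and not a binding site. Promoter windows were found for 385 of the 986 members, too few for a count of the word over them.

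Among members without overlap, 2010204K13Rik had the largest rise with MYC. This gene of unknown role (chrX:7411817-7445143, mm10) had 3.00, 3.10 and 2.96 CPM in MYC on, then 1.06, 0.963 and 0.731 CPM in MYC intermediate and 0, 0.111 and 0 CPM in MYC off. The MYC off libraries held 3 of 98190033 counts against 206 of 68379739 in MYC on, a ratio of 98.6 (exact 95% interval 33.3 to 482, counting error only), so little of this RNA was detected at 500 pg/mL doxycycline. The edgeR fit gave 6.45 ± 0.50, adjusted p = 1.74e-08. Its value between MYC intermediate and MYC off (4.75) rested on so few counts that it became 7.73 without MYC off replicate 2. 2010204K13Rik met the CPM limit only in MYC on, as did Map2k3os and 2900005J15Rik below. The limit thus favoured members like these, and their rank is only a description.

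Map2k3os (chr11:60920917-60931867) starts 166 bases from Map2k3, a kinase gene of the p38 pathway, and runs the other way. It had 4.48, 3.37 and 4.16 CPM in MYC on, then 1.21, 0.814 and 0.801 CPM in MYC intermediate and 0.252, 0.149 and 0.127 CPM in MYC off (4.46 ± 0.31, adjusted p = 4.34e-09). The libraries of the groups did not overlap and fell at each step. Its partner did not share the change: Map2k3 averaged 167, 155 and 153 CPM in MYC on, MYC intermediate and MYC off, with a log2 fold change of 0.16 and no call.

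The next member, 2900005J15Rik, lies head to head with Prkag2, which encodes a regulatory subunit of AMP-activated kinase. It had 1.57, 3.05 and 2.62 CPM in MYC on, then 0.279, 0.333 and 0.627 CPM in MYC intermediate and 0.0504, 0.111 and 0.475 CPM in MYC off (3.56 ± 0.49, adjusted p = 1.22e-05), and here most of the fall came between MYC on and MYC intermediate (2.53). Prkag2 changed by 0.63 in the same direction. Gm14230 is divergent from Tgif2, a homeobox repressor gene, and had 16.3, 17.2 and 16.4 CPM in MYC on, then 7.23, 6.11 and 6.76 CPM in MYC intermediate and 3.81, 4.12 and 3.71 CPM in MYC off (2.13 ± 0.11, adjusted p = 1.76e-10), with Tgif2 at 1.32.

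Intergenic members also rose with MYC. Gm32856 averaged 12.2 ± 0.775, 5.65 ± 1.12 and 3.16 ± 0.301 CPM in MYC on, MYC intermediate and MYC off (1.98 ± 0.15, adjusted p = 1e-08), and 4933404O12Rik averaged 103 ± 1.69, 61.6 ± 1.15 and 37.4 ± 1.21 CPM (1.49 ± 0.06, adjusted p = 1.14e-11); both were also called in each step. Norad (2900097C17Rik in the files), an abundant cytoplasmic RNA that binds Pumilio proteins, had 186, 198 and 213 CPM in MYC on, then 135, 125 and 123 CPM in MYC intermediate and 106, 95.5 and 105 CPM in MYC off (1.00 ± 0.07, adjusted p = 5.22e-09). Its level fell in both steps, with no overlap between the MYC on and MYC off libraries.

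**Figure D3:**
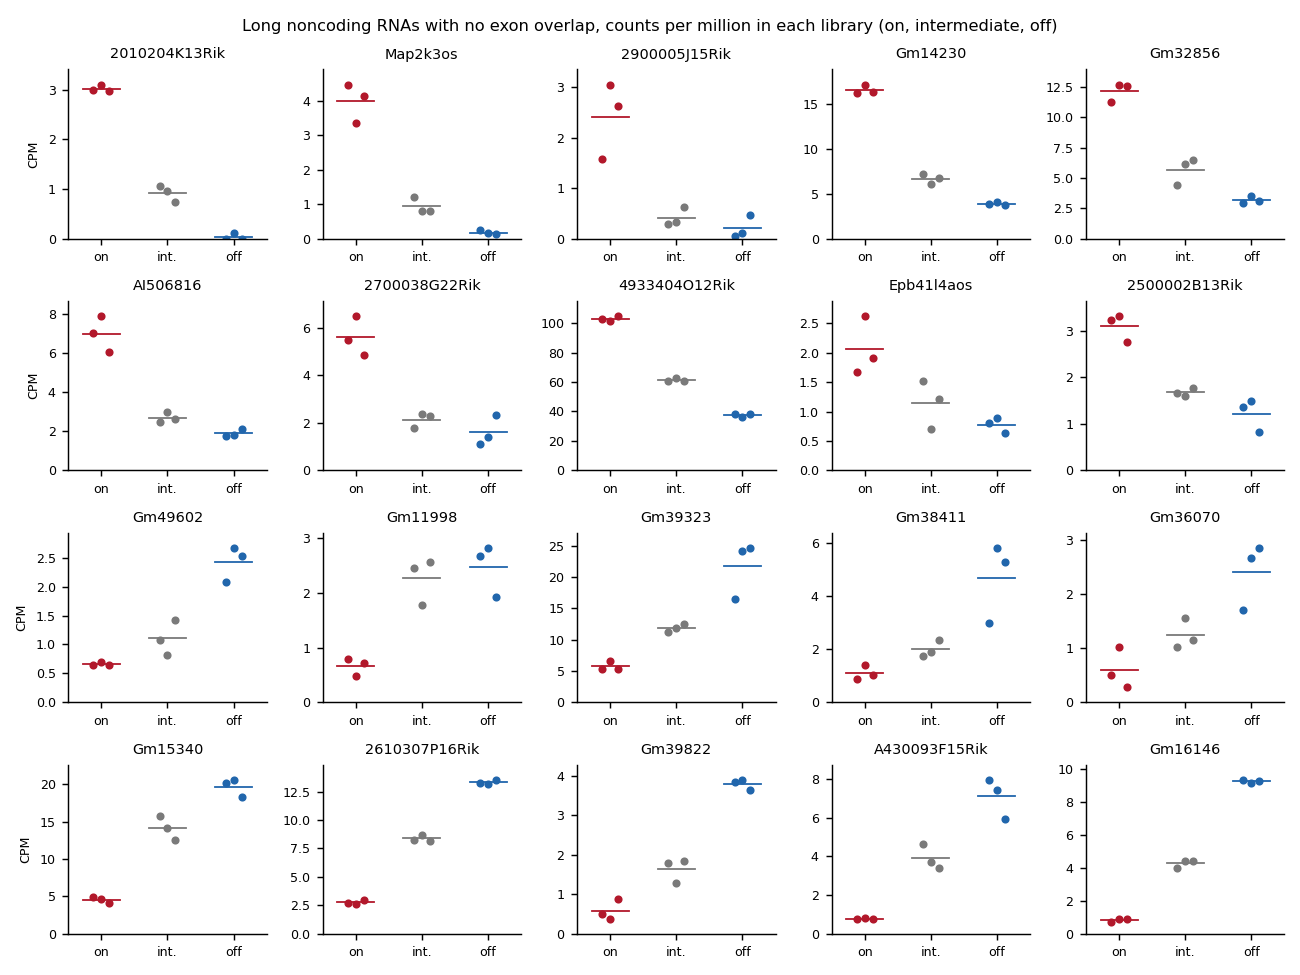
CPM (vertical axis, from 0) of the 20 members with no exon overlap that changed most, 1 point per library (n = 3 per group) with a line at each group mean. 2010204K13Rik, Map2k3os and 2900005J15Rik fall from MYC on to MYC off, while Gm16146 and A430093F15Rik climb in both steps.

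On the lower side, A430093F15Rik stood out beside a T cell gene. It starts 1945 bases from Cd5, a surface receptor that tempers T cell receptor signalling, on chromosome 19 (chr19:10740947-10786043), and runs away from it. It had 0.787, 0.802 and 0.750 CPM in MYC on, then 4.66, 3.70 and 3.41 CPM in MYC intermediate and 7.96, 7.46 and 5.95 CPM in MYC off (-3.16 ± 0.21, adjusted p = 2.86e-09), and the groups were apart at every step. Cd5 itself averaged 5.34, 49.1 and 107 CPM in the 3 groups, a log2 fold change of -4.29.

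Gm16146 lies in an intron of Cyb5a, the cytochrome b5 gene, on the opposite strand. Its libraries read 0.738, 0.909 and 0.886 CPM in MYC on, then 3.97, 4.44 and 4.42 CPM in MYC intermediate and 9.35, 9.13 and 9.31 CPM in MYC off (-3.41 ± 0.16, adjusted p = 3.62e-11), a climb in both steps with replicates close together. Cyb5a, by contrast, had a log2 fold change of 0.14 and was not called. An intronic member can also collect reads of its host's unspliced transcript, which these counts do not separate and whose part was not tested.

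Further lowered intergenic members near T cell genes were picked out after their values and neighbours had been seen. They are not the next in rank, and nothing is drawn from the choice. Over the 48 intergenic pairs given below, log2 fold changes of member and neighbour correlated at r = 0.165. Gm39323, 2325 bases from Thy1, a surface glycoprotein of T cells, had 5.36, 6.52 and 5.32 CPM in MYC on, then 11.2, 11.9 and 12.6 CPM in MYC intermediate and 16.6, 24.3 and 24.7 CPM in MYC off (-1.90 ± 0.14, adjusted p = 1.17e-08), with Thy1 at -1.17. Gm44175 lies 12598 bases from the start of Cd8a, a coreceptor gene, and had 11.02, 11.8 and 9.64 CPM in MYC on, then 9.78, 12.8 and 11.5 CPM in MYC intermediate and 16.6, 23.99 and 25.5 CPM in MYC off (-0.99 ± 0.14, adjusted p = 1.97e-05; Cd8a -0.99). Gm11579, 65034 bases from the start of the costimulatory receptor gene Cd28, averaged 2.12 ± 0.403, 3.70 ± 0.759 and 5.22 ± 0.510 CPM (-1.26 ± 0.19, adjusted p = 2.6e-05; Cd28 -0.63). Each of these members was lower in MYC on, and the 3 MYC on libraries lay below the 3 MYC off libraries in each.

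2610307P16Rik lies 68093 bases from Sox4, a transcription factor gene of early lymphocytes, and had 2.71, 2.62 and 2.93 CPM in MYC on, then 8.26, 8.70 and 8.18 CPM in MYC intermediate and 13.3, 13.2 and 13.5 CPM in MYC off (-2.23 ± 0.12, adjusted p = 1.52e-10; Sox4 -1.55). Gm39822 had 0.492, 0.374 and 0.886 CPM in MYC on, then 1.80, 1.30 and 1.85 CPM in MYC intermediate and 3.86, 3.90 and 3.64 CPM in MYC off (-2.58 ± 0.26, adjusted p = 4.19e-07) and Gm15340 averaged 4.57 ± 0.432, 14.1 ± 1.62 and 19.7 ± 1.25 CPM (-2.08 ± 0.12, adjusted p = 7.11e-10). For Gm15340 the protein-coding gene with the nearest start was Psmg1, a proteasome assembly gene 90562 bases away, which was higher in MYC on (0.80) while the member was lower. Others among the 10 were Gm36070 (-2.06), divergent from C2cd4d, and the intergenic Gm11998 (-1.84) and Gm49602 (-1.84).

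The members were also set beside the protein-coding genes next to them. Over 32 divergent pairs without exon overlap, whose starts lay a median of 173 bases apart, log2 fold changes correlated at r = 0.632 (rho 0.673); of 18 called members 11 had a partner called the same way, 2 the other way and 5 a partner not called. For 48 intergenic members and the protein-coding gene with the nearest start, a median of 29896 bases away, r was 0.165 (rho 0.216), with 16, 7 and 9 of 32 called members. Over all genes tested, 27.4% were called higher and 27.5% lower in MYC on than in MYC off. Both sets of pairs are descriptions across genes of the same libraries, and the difference between them was not tested. Examples of shared direction were C130036L24Rik (1.08) with Ncl, the nucleolin gene (1.91), B130034C11Rik (1.06) with Cct8, a chaperonin subunit gene (called in the same direction), and 2500002B13Rik (1.37) with Sap30, of a histone deacetylase complex (0.63). For B130034C11Rik the call was lost without MYC on replicate 3 (adjusted p = 0.0121). The 2 pairs called in opposite directions were 2810001G20Rik (-0.55) with Cox10 (0.59) and 4632404H12Rik with Ube2q1. 4632404H12Rik, with 3.20, 3.69 and 3.61 CPM in MYC on, then 1.46, 2.11 and 1.95 CPM in MYC intermediate and 1.16, 1.71 and 1.58 CPM in MYC off, was higher in MYC on (1.29 ± 0.20, adjusted p = 4.3e-05) while the ubiquitin-conjugating enzyme gene Ube2q1 was lower (-0.18).

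Pvt1 had the largest fold change among the RNAs of described function. It lies beside Myc on mouse chromosome 15 (chr15:62037986-62378096) and is known for its part in Myc-linked amplifications and rearrangements. Its libraries read 7.13, 7.97 and 7.60 CPM in MYC on, then 2.05, 1.81 and 3.10 CPM in MYC intermediate and 0.101, 0 and 0.190 CPM in MYC off, so that the RNA fell at each step and was nearly lost in MYC off (6.19 ± 0.36, adjusted p = 5.45e-10). The tests of both steps were also called (1.69 ± 0.23, adjusted p = 2e-05, and 4.49 ± 0.41, adjusted p = 5.36e-07). Its exons overlap other genes over only 1.56% on the other strand and 4.87% on its own. The mouse Myc gene beside it had 0 of 254517689 counts, which allows up to 0.0118 CPM at a floor of 3 counts. That floor holds only if reads of Myc could be assigned to it beside the human transgene, which was not tested.

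The nuclear body RNAs moved less, and unevenly between replicates. Malat1, which localises to nuclear speckles, had 208, 361 and 185 CPM in MYC on, then 254, 281 and 239.9 CPM in MYC intermediate and 329, 659 and 615 CPM in MYC off (-1.05 ± 0.22, adjusted p = 0.000686). MYC on replicate 2 was high and MYC off replicate 1 low, so that the groups overlapped. Neat1, the scaffold of paraspeckles, had 36.9, 55.0 and 39.5 CPM in MYC on, then 25.9, 41.1 and 42.1 CPM in MYC intermediate and 39.5, 89.0 and 84.4 CPM in MYC off and was not called (-0.66 ± 0.24, adjusted p = 0.0243), with MYC off replicate 1 again well under the other 2. Without MYC off replicate 1 it was called at -0.94. With the replicate number as a block, a pairing that the labels do not give, Neat1 was called (-0.60, adjusted p = 0.000386). Both RNAs were called lower in MYC intermediate than in MYC off (adjusted p = 0.00252 and 0.00706). Proteins of paraspeckles and speckles gave 2 higher, 2 lower and 8 not called of 12 tested between MYC on and MYC off. Over all genes 27.4% were higher and 27.5% lower. Tardbp (0.65) and Pspc1 (0.45) had positive values, and the 2 lower genes are not named here.

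**Figure D4:**
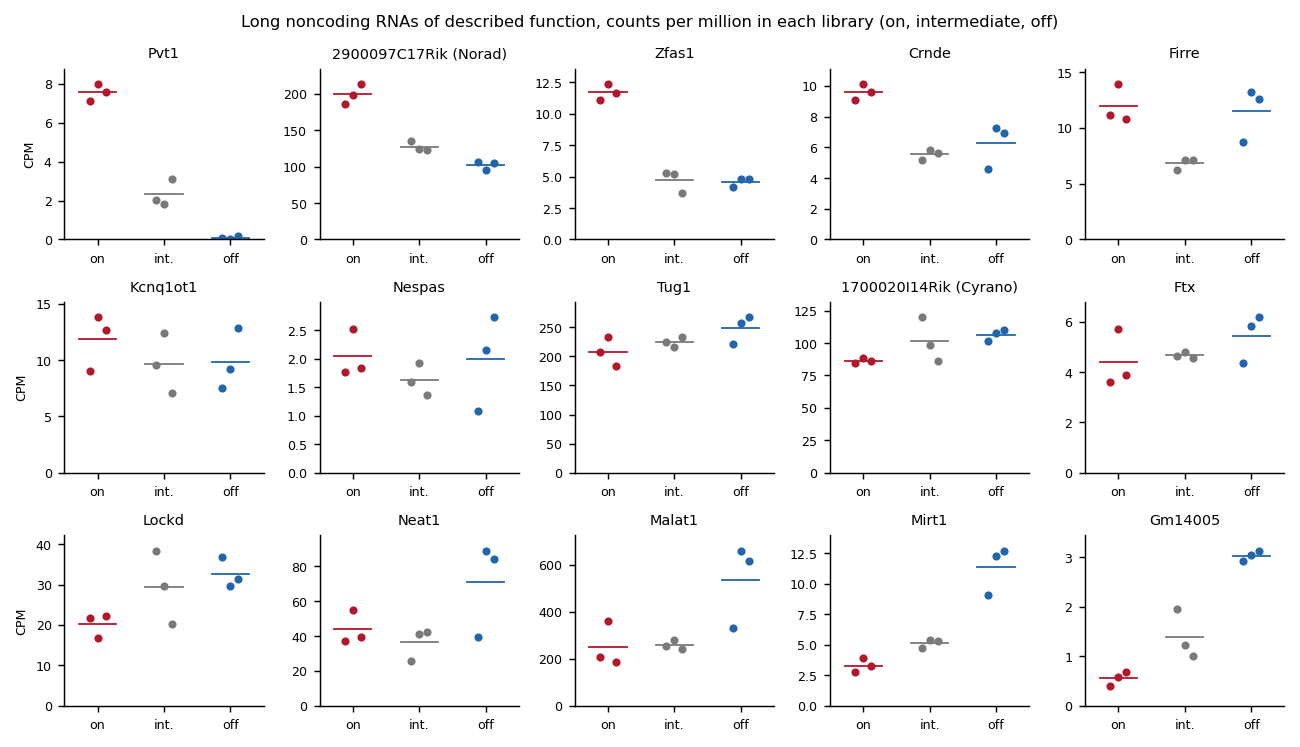
CPM (vertical axis, from 0) of members of described function, 1 point per library (n = 3 per group) with a line at each group mean. Pvt1 falls from 7.13 to 7.97 CPM in MYC on to 0.19 CPM or less in MYC off, Malat1 has MYC on replicate 2 within the range of MYC off, and Firre is lowest in MYC intermediate.

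Firre, an X-linked RNA of nuclear organisation, had the MYC intermediate level furthest below the log2 midpoint of the ends. It had 11.1, 13.9 and 10.8 CPM in MYC on, then 6.27, 7.11 and 7.14 CPM in MYC intermediate and 8.75, 13.2 and 12.6 CPM in MYC off. It was higher in MYC on than in MYC intermediate (0.79 ± 0.15, adjusted p = 0.000421) and lower in MYC intermediate than in MYC off (-0.70 ± 0.14, adjusted p = 0.00144), whereas MYC on and MYC off were not told apart (0.09 ± 0.14, adjusted p = 0.592; the sign turned to -0.01 without MYC on replicate 2 and -0.07 without MYC off replicate 1). The libraries of MYC intermediate, at most 7.14 CPM, all lay below the 6 others. Of the RNAs of the X inactivation centre, Ftx was a member and not called (-0.28) and Xist had 0 counts. Proteins that bind Xist gave 1 higher, 3 lower and 6 not called of 10, against 27.4% higher and 27.5% lower over all genes.

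Among imprinted RNAs, Kcnq1ot1, which silences genes in cis, averaged 11.8 ± 2.48, 9.69 ± 2.70 and 9.85 ± 2.74 CPM and Nespas, antisense at the Gnas locus, 2.04 ± 0.410, 1.62 ± 0.286 and 1.99 ± 0.832 CPM; neither was called (0.31 and 0.09). The value of Nespas turned to -0.06 in libraries thinned to 1 depth, -0.06 without MYC on replicate 2 and -0.23 without MYC off replicate 1. Meg3, Rian and Mirg, of another imprinted cluster, had 0 counts. In all, 13 of the listed noncoding RNAs had 0 counts in the 9 libraries.

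Of the RNAs tied to growth control, Tug1 (-0.23) was not called here but was lower in MYC on under some alternatives, upper-quartile scaling among them, and Lockd, which starts downstream of the cell cycle inhibitor gene Cdkn1b, was lower in MYC on (-0.66 ± 0.18, adjusted p = 0.00532), a call lost in 4 fits that each left out 1 library and in DESeq2. Crnde, a divergent RNA raised in several tumors, had 9.10, 10.1 and 9.61 CPM in MYC on, then 5.18, 5.81 and 5.64 CPM in MYC intermediate and 4.56, 7.24 and 6.97 CPM in MYC off (0.67 ± 0.15, adjusted p = 0.000972). Gm14005, the Morrbid RNA that restrains the apoptosis gene Bcl2l11 in myeloid cells, was lower in MYC on and had 0.394, 0.588 and 0.681 CPM in MYC on, then 1.96, 1.22 and 1.01 CPM in MYC intermediate and 2.92, 3.04 and 3.14 CPM in MYC off (-2.38 ± 0.29, adjusted p = 2.56e-06). Mirt1 averaged 3.30 ± 0.576, 5.15 ± 0.321 and 11.4 ± 1.99 CPM (-1.75 ± 0.15, adjusted p = 7.86e-08) and overlaps 4833407H14Rik (-1.90). Cyrano (1700020I14Rik), which triggers the decay of a microRNA, was not called here (-0.27 ± 0.09, adjusted p = 0.0200) but was lower in MYC on under some alternatives, library totals and upper-quartile scaling among them.

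The host RNAs of small nucleolar RNAs (snoRNAs) mostly followed MYC. A snoRNA guides the chemical modification of ribosomal RNA and is cut from an intron of its host. Of 11 members with an annotated snoRNA inside, 8 rose with MYC, 2 fell and 1 had no call, and all 4 of those without exon overlap were higher; the background for higher calls was 27.4%. 2700038G22Rik (Snord93) had 5.46, 6.47 and 4.84 CPM in MYC on, then 1.77, 2.37 and 2.26 CPM in MYC intermediate and 1.11, 1.41 and 2.34 CPM in MYC off (1.82 ± 0.23, adjusted p = 4.57e-06). AI506816 averaged 6.99 ± 0.898, 2.68 ± 0.261 and 1.89 ± 0.201 CPM (1.91 ± 0.16, adjusted p = 3.99e-08) and 2410006H16Rik (Snord49a, Snord49b and Snord65) 18.2 ± 0.747, 10.7 ± 2.95 and 9.79 ± 1.20 CPM (0.92 ± 0.16, adjusted p = 0.000125). Epb41l4aos, which averaged 2.07 ± 0.493, 1.15 ± 0.413 and 0.777 ± 0.131 CPM, was the fourth (1.43 ± 0.30, adjusted p = 0.000567). It met the CPM limit of 2 only in MYC on, and 2700038G22Rik and AI506816 fell under that limit in MYC off. Because the limit helped to choose them, the count of higher calls among these 4 is only a description.

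Zfas1, which hosts Snord12 and starts beside Znfx1, fell between MYC on and MYC intermediate and little after. It had 11.1, 12.3 and 11.7 CPM in MYC on, then 5.31, 5.22 and 3.69 CPM in MYC intermediate and 4.21, 4.79 and 4.78 CPM in MYC off (1.39 ± 0.14, adjusted p = 3.52e-07), while Znfx1, a helicase gene of antiviral defence that overlaps 2.8% of its exons, was lower in MYC on (-0.95). The hosts 1110038B12Rik (Snord52), 1810032O08Rik (Snord1a to Snord1c) and Cct6a, which RefSeq lists as protein-coding, had log2 fold changes of 1.09, 1.27 and 1.87. The lower ones, A430035B10Rik (-1.74) and 1700020G17Rik (-0.91), hold snoRNAs known only by an identifier and cross Glcci1 (-1.74) and E2f7 (-1.11), which moved the same way.

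The hosts of microRNAs gave a mixed picture. The mature sequences within the better known hosts are shown because each is what the host is processed for. They come from RefSeq on GRCm38.p6, and capitals mark the seed (bases 2 to 8), which selects the targets.
miR-142a-5p (Mir142hg): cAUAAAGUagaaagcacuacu
miR-142a-3p (Mir142hg): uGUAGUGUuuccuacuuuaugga
miR-181a-5p (Gm4258): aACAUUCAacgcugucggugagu
miR-181b-5p (Gm4258): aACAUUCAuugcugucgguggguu
miR-15a-5p (Dleu2): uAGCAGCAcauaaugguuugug
miR-16-5p (Dleu2): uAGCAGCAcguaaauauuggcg
miR-132-3p (1700016P03Rik): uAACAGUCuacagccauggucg
miR-212-3p (1700016P03Rik): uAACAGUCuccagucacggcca
miR-141-3p (Gm15884): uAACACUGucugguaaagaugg
miR-200c-3p (Gm15884): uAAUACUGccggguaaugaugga
The seed is shared within the miR-181, miR-15/16 and miR-132/212 pairs, and differs between miR-141 and miR-200c. Libraries of polyadenylated RNA measure the host transcript and not the mature microRNA.

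Of 15 members with an annotated microRNA inside, 3 were higher in MYC on, 7 lower and 5 not called, against 27.4% higher and 27.5% lower over all genes. Gm4258, host of miR-181a and miR-181b, which tune T cell receptor sensitivity, had 1.33, 2.03 and 1.23 CPM in MYC on, then 2.27, 3.22 and 1.95 CPM in MYC intermediate and 2.39, 5.83 and 5.70 CPM in MYC off and was lower in MYC on (-1.57 ± 0.32, adjusted p = 0.000497). Dleu2, host of the miR-15a and miR-16 pair that targets cell cycle and survival genes, had 6.64, 7.91 and 6.30 CPM in MYC on, then 11.7, 10.7 and 7.59 CPM in MYC intermediate and 13.9, 20.4 and 19.2 CPM in MYC off (-1.32 ± 0.17, adjusted p = 4.88e-06). Both hosts lay below their MYC off levels in every MYC on library.

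Mir142hg, host of the blood cell microRNA miR-142, had 1.82, 2.78 and 1.81 CPM in MYC on, then 1.99, 2.00 and 2.19 CPM in MYC intermediate and 2.52, 6.68 and 5.29 CPM in MYC off (-1.14 ± 0.29, adjusted p = 0.00273). The MYC off libraries spread widely and reached into the range of MYC on, and the call was lost without MYC on replicate 1 or 3 or MYC off replicate 2 or 3. Gm15884, which holds miR-141 and miR-200c, was higher in MYC on (1.85), as was Phb2 (1.88), a prohibitin gene across from 21.9% of its exons. 1700016P03Rik, host of miR-132 and miR-212, was not called (0.30). Of 15 tested proteins that process or load microRNAs, 3 were higher, 3 lower and 9 not called, against 27.4% higher and 27.5% lower over all genes. Among them were the export factor genes Ran (0.89) and Xpo5 (0.67) and the silencing factor gene Tnrc6b (-0.73).

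**Figure D5:**
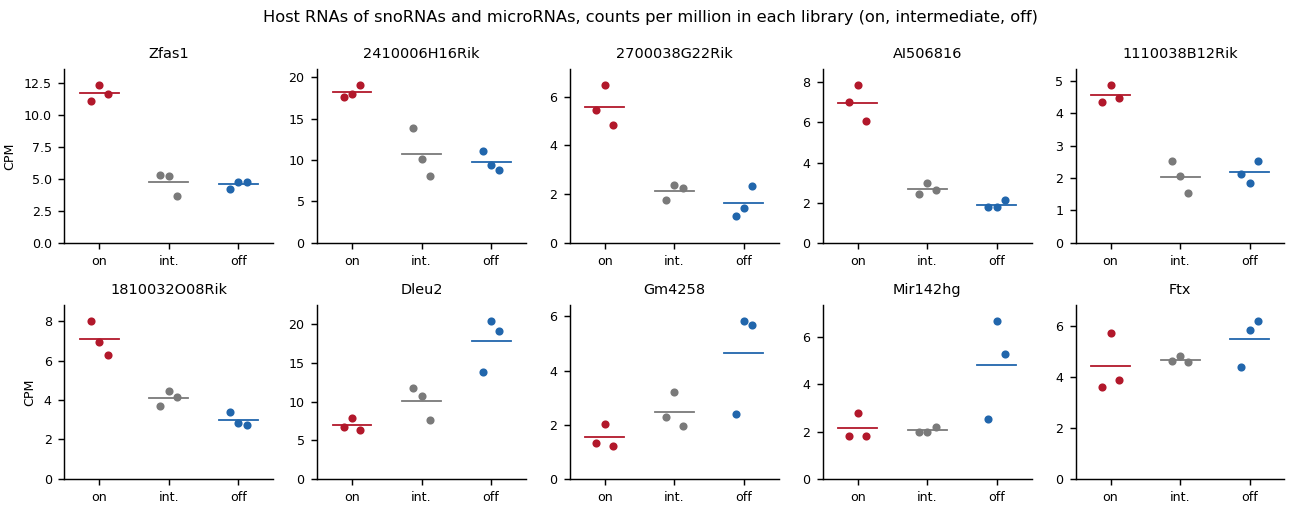
CPM (vertical axis, from 0) of members that hold snoRNAs or microRNAs, 1 point per library (n = 3 per group) with a line at each group mean. The snoRNA hosts drawn lie highest in MYC on (2700038G22Rik 5.59 against 1.62 CPM in MYC off), whereas Gm4258 and Dleu2 lie highest in MYC off. The members drawn are a selection. It leaves out the 2 of 11 snoRNA hosts that were called lower in MYC on, and the microRNA host Gm15884, which was higher.

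Among the members with large changes, those listed here crossed a gene that changed with them. 2010204K13Rik, Pvt1 and Map2k3os, which rose more than any of these, were described above and are not among them. Of all 986 members, 775 had a tested protein-coding gene across from them, so such pairs are common. On the higher side were Efhd1os (3.92) with Efhd1 (3.99), Gm48746 (3.41) with the RNase P subunit gene Rpp40 (3.07), Gm17590 (3.12) with the cell cycle kinase gene Cdk6 (2.88), AI115009 (3.04) with the adenylate kinase gene Ak5 (2.97), Gm26628 (2.85) with the RNA polymerase I gene Polr1a and A430057M04Rik (2.85) with Comtd1 (2.99). On the lower side were Gm13070 (-4.22) with Spsb1 (-3.92), A630019I02Rik (-4.19) with Cmya5 (-2.74), Gm11802 (-3.46) with Tox, a thymocyte transcription factor gene (-3.67), Tnk2os (-3.32) with the kinase gene Tnk2 (-3.04), Galnt6os (-3.31) with Galnt6 (-3.11) and Gimap1os (-3.25) with the lymphocyte GTPase gene Gimap1 (-3.05). In each pair the member and its partner were called in the same direction.

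2310001H17Rik fell outside this pattern, since only 1.04% of its exons are overlapped, by a gene that was not tested. It had 0.0492, 0.214 and 0.204 CPM in MYC on, then 1.37, 1.00 and 0.627 CPM in MYC intermediate and 3.81, 3.97 and 3.17 CPM in MYC off, the lowest fold change of any member (-4.44 ± 0.38, adjusted p = 5.1e-08), and was lower at each step. The protein-coding gene with the nearest start was Cd69, an early activation marker of T cells, which had a log2 fold change of -2.99. BC028471 (-3.45) and Gm20488 (-3.90) lie near Medag; 63.6% of the exons of Gm20488 overlap another gene on its own strand.

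In 9 pairs the member and the gene across from it were called in opposite directions. Gm16279, across from the tubulin acetyltransferase gene Atat1, had 74.7, 71.9 and 75.5 CPM in MYC on, then 38.4, 46.1 and 50.8 CPM in MYC intermediate and 27.9, 27.6 and 27.9 CPM in MYC off and was higher in MYC on (1.45 ± 0.09, adjusted p = 8.6e-10), whereas Atat1 was lower (-0.95). C030034L19Rik, across from Zfp704, was lower (-1.24 ± 0.15, adjusted p = 2.44e-06) and Zfp704 higher (0.81). Gm17206 was lower (-0.92) and Serhl higher (0.45), while Rsf1os2 was higher (0.85) and the chromatin remodelling gene Rsf1 lower (-0.32). Zfas1 and Znfx1 were given above, and the others were 1600020E01Rik with Pcbp1, Dhrs13os with Phf12, Gm44710 with Zfp36 and Gm45822 with Tom1.

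MYC intermediate was also set against the log2 midpoint of MYC on and MYC off. It lay above the midpoint in 13 members and below it in 3, against 1.7% and 0.184% of all genes tested. Above it were A630019I02Rik (1.28 ± 0.25, adjusted p = 0.00804), Gm11802 (0.98), BB031773 (0.74), which crosses Tctex1d1, and Gm16146 (0.63), all lower in MYC on than in MYC off. Below it were Firre (-0.74 ± 0.13, adjusted p = 0.00361), Gm15612 (-0.46) and Gm26762 (-0.37). In members lower in MYC on, a value above the midpoint means that MYC intermediate lay nearer to MYC off on the log2 scale. The number of these calls moved with the libraries used: 16 became 31 with the replicate number as a block, 4 without MYC intermediate replicate 2, 6 to 9 without any 1 of the MYC on libraries or of MYC off replicates 2 and 3, and 25 without MYC off replicate 1.

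The members of highest TPM crossed abundant genes. Gm17080, across from the nucleoside transporter gene Slc29a1, had a mean of 2041 TPM, Gm48719, across from the T cell receptor subunit gene Cd3e, 1766 TPM, and Gm20496, across from the immunoproteasome gene Psmb8, 1696 TPM. Their log2 fold changes between MYC on and MYC off were 0.22, -0.63 and -0.25, beside 0.22, -0.65 and -0.22 for those genes. Next were Gm28364 (Aamp), Gm28592 (Phlda1), Gm26765 (Tmpo) and Gm44649 (Iqgap1), with 1599, 1112, 1045 and 849 TPM. A level of such a member per length says nothing of its own transcript while strands are mixed.

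A pair of abundant members lies at a ribosomal RNA copy. Gm26917 (chr17:39843013-39846341) ends 13 bases before the 18S ribosomal RNA pseudogene Rn18s-rs5, and Gm42418 covers 67.3% of it. Gm26917 had 656, 605 and 705 CPM in MYC on, then 543, 474 and 374 CPM in MYC intermediate and 335, 291 and 348 CPM in MYC off (1.05 ± 0.11, adjusted p = 7.73e-07), and Gm42418 was also higher in MYC on (0.30). Reads of the many ribosomal RNA copies can land at such a locus, so both values are uncertain as measures of these genes. Gm26917 is among the 128 members with no exon overlap. Its MYC on mean of 655 CPM was the highest group mean among the 28 of them that were higher in MYC on. RefSeq lists 18 members as protein-coding, of which 10 were higher in MYC on and 0 lower, against 27.4% and 27.5% over all genes.

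The machinery that destroys nuclear noncoding RNA was followed from a list of the RNA exosome and its adaptors. Of 18 tested genes, 10 had a higher level in MYC on, Zcchc8 alone a lower one and 7 no call, with Exosc7 (1.52 ± 0.08, adjusted p = 1.14e-10), Exosc1 (1.35) and the nuclease gene Dis3 (1.31) in front; Zcchc8 is an adaptor gene (-0.33). The Integrator complex, which ends the transcription of many short and noncoding RNAs, gave 6 higher, 1 lower and 7 not called of 14 tested, among them Ints10 (0.63). Over all genes tested, 27.4% were called higher and 27.5% lower in MYC on than in MYC off. The genes of both lists are no members, and they are given as the proteins that act on such RNAs.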

How the data were processed

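RNA of 9 T-ALL libraries (mock, 20 or 500 pg/mL doxycycline for 48 h) was copied with oligo(dT) primers and tagged by a transposase kit that keeps no strand. Per the submitters' processing notes, the tools were featureCounts, STAR 2.5.4b and cutadapt 1.16 on the mm10 build. The strand setting of the counting is not given in the sources used here. The authors deposited raw counts per gene (whole numbers), a score of reads per kilobase (counts over gene length), FPKM and TPM scaled from it, and a fraction that ranks each gene in its library. Tests used the deposited counts, levels between genes used the deposited TPM, and the other columns served as checks.

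GENCODE M21 on mm10 supplied classes and exons, and RefSeq tables on GRCm38.p6 supplied sequences. In R 4.3.3, edgeR 4.0.16 (TMM, default count filter, 14098 genes, quasi-likelihood F test, two-sided, all 9 libraries, group as the term) gave the contrasts, with Benjamini-Hochberg adjustment over all genes and calls at an adjusted p under 0.01; the step was tested on simulated counts. Totals ran from 18705516 to 39678799 counts, so 3 counts, the floor used for 0, equal at most 0.16 CPM in 1 library; intervals and floors cover counting error only. Replicate numbers were checked as pairs over 8885 genes with 10 or more CPM: deviations from the group mean correlated at 0.42, 0.29 and 0.26 between same-numbered MYC on and MYC off libraries (0.15, -0.22 and -0.19 for MYC on with MYC intermediate, and 0.40, 0.02 and 0.09 for MYC intermediate with MYC off). Differently numbered MYC on and MYC off libraries gave -0.45 to 0.16, but MYC on replicate 3 and MYC intermediate replicate 2 gave 0.45. The labels do not say what a replicate number marks, so a pairing is not established.

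Members, lists and most named genes were chosen with earlier results of these data known. Named are, per contrast, called members with groups apart and the largest change (up to 10 per direction for MYC on against MYC off, 4 otherwise), the 8 of highest TPM, listed RNAs of described function, members furthest from the midpoint and genes at the CPM limit; the 20 without exon overlap, hosts and neighbours were added after values were seen. Some results that this rule would name are not reported here.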

Additional observations from a re-analysis of the deposited data

How the results depend on the processing

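No alternative turned the sign of the members' median in the 3 contrasts between groups, and library totals, upper-quartile scaling and DESeq2 each moved the median over all genes by less than 0.1 on the log2 scale. The members' median between MYC on and MYC off was -0.188 with library totals alone and -0.222 with upper-quartile scaling, which also gave -0.161 between MYC intermediate and MYC off, and -0.445 and -0.289 for the members without exon overlap. Narrower sets gave fewer calls by construction. Without exon overlap 82, 48, 29 and 4 were called in the 4 contrasts (MYC on against off, on against intermediate, intermediate against off, midpoint), with medians of -0.377, -0.129, -0.219 and -0.0556; lincRNA alone gave 123, 72, 47 and 2, with medians of -0.246 and -0.0981 in the first and second; members free of overlap and outside protein-coding gene bodies gave 64, 41, 24 and 3, with medians of -0.265, -0.0998, -0.179 and -0.0360. The correlation of fold changes with the protein-coding neighbour went from 0.618 over 844 pairs to 0.412 over the 105 with no exon overlap.

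The midpoint contrast was the least stable: 16 calls became 9 with library totals or upper-quartile scaling, 31 with DESeq2, 54 with no count filter and 31 with a replicate block. Among members without overlap 4 became 2 under either scaling and 11 with no count filter. The cause was not tested. Leaving out each library in turn gave 463 to 565 calls (medians -0.175 to -0.143) between MYC on and MYC off, 251 to 320 (-0.0668 to -0.0250) between MYC on and MYC intermediate, 147 to 210 (-0.105 to -0.0706) between MYC intermediate and MYC off and 4 to 25 (-0.00721 to 0.0270) at the midpoint. For the members without overlap it gave 68 to 84 calls (-0.512 to -0.306), 37 to 52 (-0.181 to -0.0575), 22 to 32 (-0.286 to -0.190) and 0 to 6 (-0.0707 to -0.00224).

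With the replicate number as a block, 560, 330 and 230 members were called in the first 3 contrasts in place of 544, 307 and 207; among the 73 named genes, Neat1 (-0.60) was the one call it changed. Of 1513 values of 73 named genes, 1460 kept direction and call, 25 gained a call, 23 lost one and 5 changed sign. The sign changes were in Firre, which ran from -0.0654 (without MYC off replicate 1) to 0.189 (without MYC off replicate 2), and in Nespas, which had -0.0626 when thinned to 1 depth and ran from -0.226 (without MYC off replicate 1) to 0.387 (without MYC off replicate 3); neither was called. The planned count of E-box words over the members was not run, since promoters were found for 39.0% of them. Of the 128 members without overlap 68 lie under 5 CPM, and thinning every library to the smallest gave 79 calls among the 128 in place of 82.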
